A study of Homo sapiens with 24 samples.

Results

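Mitotic kinases and spindle checkpoint genes were examined for the histone H3 acetylation H3K27ac, a mark of active promoters and enhancers, in human mammary epithelial cells with ANCO1 depleted or not. The members were 10 genes chosen by name. They were AURKA, AURKB, BUB1, BUB1B, MAD2L1, PLK1, CCNB1, TTK, CENPE and ESPL1, of 20056 protein-coding genes in RefSeq. A region belonged to a member when the deposited annotation named the gene over the region or in its flank, which reached up to 10000 bp. This gave 22 of 50284 regions in the comparison of shANCO1 with shCTRL in 10A and 19 of 44790 in DCIS. The tables of enrichment over input gave 6 of 15490 regions for 10A shCTRL, 17 of 28607 for 10A shANCO1, 12 of 15482 for DCIS shCTRL and 11 of 16692 for DCIS shANCO1.

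The 24 libraries formed 8 groups of 3. They crossed 2 cell lines, a hairpin against ANCO1 or a control hairpin, and H3K27ac immunoprecipitation or input chromatin. 10A (MCF10A) is an immortalised, non-cancerous breast epithelial line. DCIS (MCFDCIS) is a tumour-forming line of the same lineage, obtained by oncogene transfer and passage in mice, whose lesions resemble ductal carcinoma in situ. ANCO1 is the product of ANKRD11, a chromatin co-regulator, and was depleted with a lentiviral pLKO.1 hairpin (shANCO1). The controls carried the same vector with a hairpin against GFP (shCTRL), so every group was infected and puromycin-selected. The infected cells were used as selected populations, and no age, time or further treatment separated the groups. The deposited tables gave each region a single line in which the libraries of a group were already combined, so the value in each library, the spread between replicates and the depth were unknown, and the authors' csaw FDR was the only test. The knockdown of ANKRD11 itself cannot be read from an acetylation table of this kind.

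These genes work in one sequence at the end of the cell cycle. Cyclin B and its kinase start mitosis, PLK1 and the Aurora kinases build and correct the spindle, and the checkpoint proteins hold the cell before anaphase until every kinetochore is attached. When the checkpoint is satisfied, the anaphase-promoting complex triggers destruction of cyclin B and release of separase. In dividing cells the genes are transcribed late in the cycle, and many of their promoters carry a CCAAT box and a cell cycle homology element close to the start.

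As a check on the labelled cell type, 5 of 8 basal and mammary epithelial marker genes had an enriched promoter region in each of the 10A groups and 6 of 8 in each of the DCIS groups. KRT14 had none in any group. The luminal receptor genes ESR1 and PGR also had none, and neither did COL1A1, COL1A2 and PDGFRB of the fibroblast list or CDH5, TEK and VWF of the endothelial list. The numbers enriched were 1 or 2 of 4 luminal genes and 0 or 1 of 4 fibroblast genes by group, and 1 of 4 endothelial genes in every group. Over all protein-coding genes the share enriched was 30.2% in 10A shCTRL, 51.2% in 10A shANCO1, 37.6% in DCIS shCTRL and 39.7% in DCIS shANCO1. Beside such shares, lists this short say little about cell type, least of all in 10A shANCO1.

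Promoter sequences are shown because the promoter regions tested in both lines span these bases. The RefSeq promoter table (GRCh38.p14) spans 250 bases before the start to 50 bases after it and held 8 of the 10 members; AURKA and TTK had no entry. In 7 of the 8 the annotated start was the same base as the GENCODE release 44 MANE Select start. The AURKB entry started 326 bases inside the GENCODE transcript. Both strands were searched for TTTGAA, the core of the cell cycle homology element, for its variant TTCGAA, and for a further variant with TTTAAA. The CCAAT box was searched in the same way, as CCAAT. None of the matches in the 8 entries overlapped another. The bases before the start of 2 members are given 5′ to 3′ on the gene's strand, with motif matches in capitals, for PLK1 (plus strand, chr16:23678639-23678888) and CCNB1 (plus strand, chr5:69166900-69167149).
PLK1: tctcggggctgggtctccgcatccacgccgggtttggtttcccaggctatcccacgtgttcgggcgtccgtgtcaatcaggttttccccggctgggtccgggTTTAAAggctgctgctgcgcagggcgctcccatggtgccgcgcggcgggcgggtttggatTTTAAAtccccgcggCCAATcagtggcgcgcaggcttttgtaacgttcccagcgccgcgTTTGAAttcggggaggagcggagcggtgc
CCNB1: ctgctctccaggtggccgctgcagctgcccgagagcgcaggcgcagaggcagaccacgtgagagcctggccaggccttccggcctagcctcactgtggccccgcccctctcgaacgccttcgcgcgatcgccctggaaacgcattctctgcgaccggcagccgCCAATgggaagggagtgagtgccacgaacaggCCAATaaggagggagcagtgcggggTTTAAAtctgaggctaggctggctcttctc

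In PLK1 the TTTGAA match ran from base -29 to base -24 and the CCAAT match from -73 to -69, counted from the start. CCNB1 had TTTAAA from -30 to -25 and 2 CCAAT matches, the nearer from -55 to -51. The 30-base windows around the matches of 5 other members show the variants side by side, on the gene's strand, with the core in capitals. They lie at chr12:53268256-53268285 (ESPL1, plus strand), chr15:40161034-40161063 (BUB1B, plus strand), chr4:120066807-120066836 (MAD2L1, minus strand), chr2:110678045-110678074 (BUB1, minus strand) and chr4:103198391-103198420 (CENPE, minus strand, 2 joined copies).
ESPL1: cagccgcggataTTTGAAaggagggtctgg
BUB1B: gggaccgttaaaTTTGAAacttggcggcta
MAD2L1: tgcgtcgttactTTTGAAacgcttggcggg
BUB1: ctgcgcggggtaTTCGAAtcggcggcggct
CENPE: ttgggaaatTTTAAATTTAAAggcggggcg

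TTTGAA was present in 4 of the 8 members (BUB1B, MAD2L1, PLK1 and ESPL1) and in 15.2% of all 35116 entries of the table. TTTAAA was present in PLK1, CCNB1 and CENPE and in 12.2% of all entries. BUB1 alone among the 8 held TTCGAA, which 1.45% of all entries held. CCAAT was present in 6 of the 8 and in 34.6% of all entries. AURKB was among the 6 and had none of the 3 core variants within its entry. That entry lies wholly inside the GENCODE transcript. The bases before the GENCODE start of AURKB were therefore not searched, and its result does not describe them. The GC content of the 8 entries ran from 57.7% to 66.3% with a median of 63.2%, beside a median of 58.7% over all entries. The number of CpG dinucleotides per entry ran from 17 in AURKB to 33 in PLK1 and ESPL1, with a median of 25.5 beside 14 over all entries.

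The first comparison asked where H3K27ac changed upon depletion of ANCO1 in 10A. H3K27ac was higher in shANCO1 at the promoter regions of 8 of the 10 genes at an FDR under 0.05, and at none was it lower. For reference, the promoter region was up at 70.2% of the 12483 protein-coding genes that had one and down at 0.12%, so the share among the members was near that background. The values are log2 fold changes of shANCO1 over shCTRL at 1 representative window of each region, and each gene is represented by its lowest-FDR region of those annotated as its promoter. Their median was 1.03 over the 10 members, from 0.59 to 1.27, beside 0.89 over all genes, whose middle range from the lower to the upper quartile was 0.69 to 1.10. Of the 10 members, 6 lay above the median of all genes and 4 below. All 10 promoter regions spanned the GENCODE start, and 94 of their 214 windows (43.9%) were counted as up in the deposited table, with 0 down. Over the promoter regions of all genes 43.2% of windows were counted as up. In bulk chromatin, more cells carrying the mark and more of the mark per cell cannot be told apart. At an FDR under 0.01 the promoter regions of 4 members were up, and with values centred on the median of all regions and a change of at least 1 log2 unit required, 0 members were up. The centred rule asks for 1 unit beyond a median of 0.76, which the upper quartile of all genes, 1.10, did not reach either. The share of all genes passing these 2 settings is not given, so the counts have no background.

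Among the genes of mitotic entry, PLK1, the polo-like kinase that matures centrosomes and activates the cyclin B kinase, had the lowest FDR of the members. Its region ran over the first exons at chr16:23678101-23680800, and rose by 1.17 on the log2 scale (FDR 0.000377), 15 of its 24 windows being up. CCNB1, which encodes cyclin B1, rose by 0.72 (FDR 0.00395) at chr5:69166601-69168600. AURKA, the centrosomal Aurora kinase, rose by 0.72 (FDR 0.00427) at chr20:56390501-56394200, a region 3700 bp wide that also overlapped the neighbouring CSTF1. PLK1 thus stood above 80.1% of all genes by size of change, while CCNB1 and AURKA stood above 28.3% and 27.8%.

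Of the checkpoint genes, 3 of 4 were up at the promoter, near the 70.2% of all genes. BUB1B, which encodes the BubR1 subunit of the inhibitor of the anaphase-promoting complex, had the highest log2 fold change of the members, 1.27, with an FDR of 0.0168 at chr15:40160501-40162300. BUB1, the kinase that marks centromeric chromatin, rose by 1.17 on the log2 scale with an FDR of 0.00246 at chr2:110676901-110679200. TTK, the kinase also called MPS1 that switches the checkpoint on, rose by 1.11 with an FDR of 0.0185 at chr6:80003701-80005500. MAD2L1, which encodes the checkpoint protein MAD2, had a log2 fold change of 0.95 but missed the threshold with an FDR of 0.0594. Its region at chr4:120065001-120068200 also overlapped the divergent transcript MAD2L1-DT, and 10 of its 31 windows were counted as up.

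Among the genes of chromosome attachment and separation, AURKB, the kinase of the chromosomal passenger complex that corrects faulty attachments, rose by 1.22 on the log2 scale with an FDR of 0.0113 and 14 of 19 windows up, at chr17:8209301-8211300. ESPL1, which encodes separase, the protease that cuts cohesin at anaphase, rose by 0.63 with an FDR of 0.0458 at chr12:53267601-53269300, close to the threshold. CENPE, the kinetochore motor that carries chromosomes to the spindle equator, had the lowest value, 0.59 with an FDR of 0.0733, at chr4:103197401-103199100. ESPL1 and CENPE stood above 18.3% and 14.5% of all genes by size of change. Whether members differed from each other in size was not tested, since no error of the fold change was available.

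**Figure D1:**
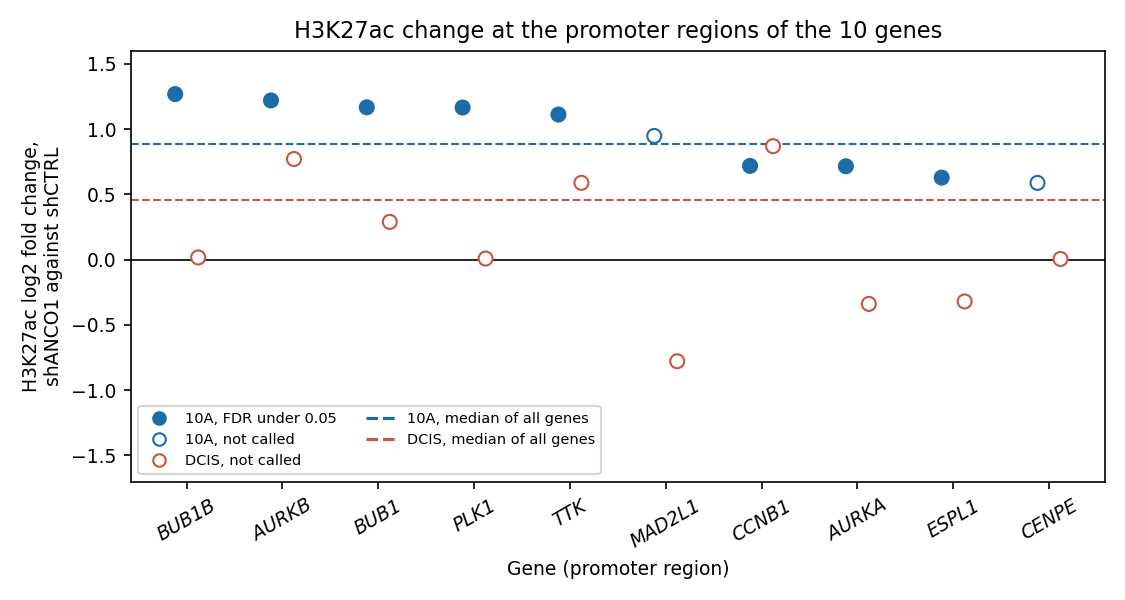
Each point is the deposited log2 fold change (shANCO1 against shCTRL, vertical axis) at the promoter region of 1 gene (horizontal axis), in 10A (blue) and DCIS (red), filled where the FDR was under 0.05. Dashed lines are the medians over all protein-coding genes, 0.89 in 10A and 0.45 in DCIS. In 10A all 10 points lie above 0, between 0.59 and 1.27, and 8 are filled; in DCIS they lie between -0.78 and 0.87 and none is filled.

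The other 12 regions in 10A lay inside the genes or in their flanks. Of all 22 regions, 13 were up and 0 down, beside 43.6% up and 0.225% down over all 50284 regions of the table. The deposited log2 fold change was above 0 in all 22, with a median of 0.93 beside 0.76 over all regions. In AURKA an intronic region 500 bp wide at chr20:56375801-56376300, which starts 15915 bp downstream of the start, rose by 1.26 on the log2 scale with an FDR of 0.0163. A second intronic region of AURKA had a log2 fold change of 0.16 with an FDR of 0.965. In CENPE an intronic region at chr4:103136901-103137400 rose by 1.07 with an FDR of 0.0408, so that CENPE was called there and not at its promoter. Its neighbour within the same gene had a log2 fold change of 0.48 with an FDR of 0.399. With the introns counted, 9 of the 10 members had a region over the gene that was up, and MAD2L1 was the exception. By the same rule 73.5% of the 13252 protein-coding genes with a region over them were up. The 2 regions downstream of MAD2L1 had FDRs of 0.0531 and 0.262.

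Of the 5 flanking regions that lay over another gene, 3 were up, beside 43.6% of all regions in 10A. These 3 lay over LINC00324 near AURKB (log2 fold change 1.21, FDR 0.00149), over FAM210B near AURKA (0.92, FDR 0.000881) and over PFDN5 and MYG1 near ESPL1 (0.94, FDR 0.000653). These regions belong to the members by distance alone, the last at 5663 bp from ESPL1 and the first at 9401 bp from AURKB. Leaving them out lowered the count from 13 to 10 regions and kept it at 9 genes.

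The same comparison in DCIS gave no call. At the FDR threshold of 0.05 in csaw, 0 of the 10 promoter regions and 0 of all 19 regions were up or down, and 1 of the 10 promoter regions and 2 of the 19 regions had an unadjusted p-value under 0.05. Over all protein-coding genes with a promoter region in DCIS, 19.2% of 12310 were up and 3.73% down, and over all 44790 regions 23.6% were up and 4.86% down. No member had any region over the gene that was up, beside 28.1% of 13041 protein-coding genes. The median log2 fold change over the members' promoter regions was 0.01, beside 0.45 over all genes, and 3 of the 10 members lay above that median. Over the 10 promoter regions, 2 of 174 windows (1.15%) were counted as up and 0 as down. Over the promoter regions of all genes 12.8% of windows were up. Both of those 2 windows were in AURKB. Outside the promoters, a flanking region of BUB1B at chr15:40155601-40155800 had its 1 window counted as up, with an FDR of 0.125.

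AURKB came nearest to the threshold in DCIS, at 0.77 on the log2 scale (FDR 0.0818). CCNB1 had the highest value, 0.87, yet an FDR of 0.608 and 0 of 15 windows up. TTK had 0.59 with an FDR of 0.767 and BUB1 had 0.29 with an FDR of 0.897. BUB1B, PLK1 and CENPE had log2 fold changes of 0.0163, 0.0081 and 0.005, each with an FDR of 0.998. The values of ESPL1, AURKA and MAD2L1 were negative, at -0.32, -0.34 and -0.78, with FDRs of 0.485, 0.88 and 0.36. AURKA had a second promoter region in DCIS, at 0.04 with an FDR of 0.992. The deposited direction was mixed, neither up nor down, at the regions of AURKA, BUB1, BUB1B, PLK1 and CENPE. At these the value of 1 representative window need not stand for the whole region. Values of this size with FDRs of this size do not show that H3K27ac at these promoters was equal in the 2 DCIS groups, because the table gives no interval for the fold change. In DCIS the members with a value above 0 numbered 7 of 10, beside 64.7% of all genes.

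Set side by side, the log2 fold change was higher in 10A than in DCIS at 9 of the 10 members, CCNB1 being the exception. Over the 11666 protein-coding genes with a promoter region in both lines it was higher in 10A at 67.9%. Of the 10 members, 8 were up in 10A only and 2 in neither line. Over all genes 6482 of 11666 were up in 10A only, 1854 in both and 416 in DCIS only. The lines stood in separate tables with no test of one line against the other, so a call in 10A without one in DCIS does not show that the lines differ.

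The next comparison asked at which members H3K27ac stood above input in each group. In 10A shCTRL 4 members had an enriched promoter region (AURKA, BUB1, MAD2L1 and CCNB1), and in 10A shANCO1 all 10 had one. In DCIS shCTRL and in DCIS shANCO1 the same 8 members had one, and TTK and CENPE did not. The share of all protein-coding genes with an enriched promoter region was 30.2% in 10A shCTRL, 51.2% in 10A shANCO1, 37.6% in DCIS shCTRL and 39.7% in DCIS shANCO1. Apart from 2 regions of DCIS shCTRL, which were not counted, every region in the input tables had an FDR under 0.05. The highest FDR listed was 3.92e-08 in 10A shCTRL, 1.46e-08 in 10A shANCO1 and 1.24e-08 in DCIS shANCO1. The lists thus stop far below 0.05, and a gene without a region may still pass that threshold. Not enriched here means only that no enriched region was listed. How near a gene without a region came to enrichment is not known. In 10A, 6 of the 10 members enriched in shANCO1 were not enriched in shCTRL, beside 41.3% of the 10261 genes enriched in shANCO1. In DCIS this was 0 of 8, beside 13.7% of 7962 genes. The input tables and the direct table of a line share the H3K27ac libraries, so the 2 kinds of table are not independent of each other.

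The members fell into 3 patterns of enrichment. BUB1, AURKA, MAD2L1 and CCNB1 were enriched in all 4 groups, as were 4927 of the 20056 protein-coding genes. AURKB, BUB1B, PLK1 and ESPL1 were enriched in 10A shANCO1 and both DCIS groups and not in 10A shCTRL. These 4 were the members enriched in DCIS shCTRL and not in 10A shCTRL. Since all 10 members were enriched in 10A shANCO1, that these 4 were enriched there adds nothing further. Of all genes with that difference between the control groups, 2035 of 2376 (85.6%) were enriched in 10A shANCO1. That number does not require enrichment in DCIS shANCO1, so it is not the count of genes with the pattern of these 4. TTK and CENPE were enriched in 10A shANCO1 alone, as were 1704 genes in all.

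**Figure D2:**
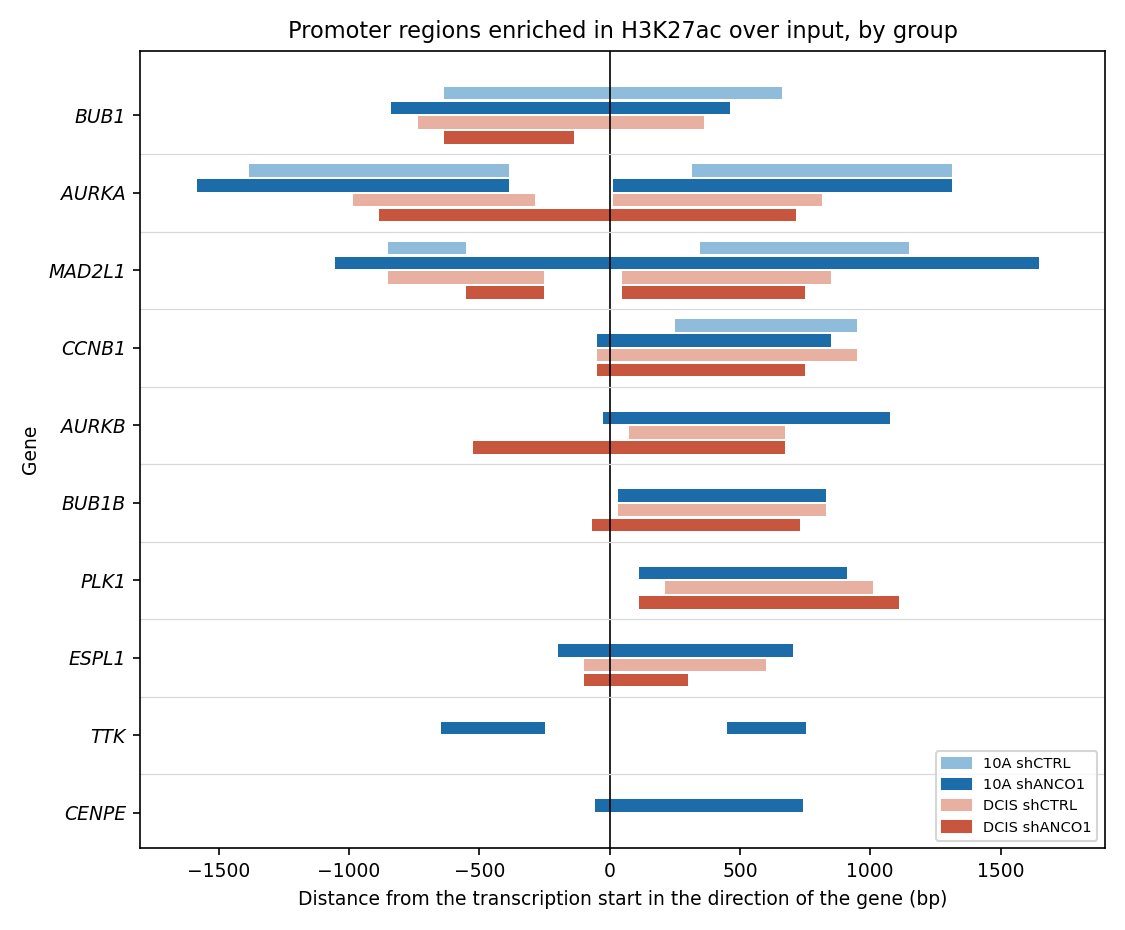
Bars are promoter regions enriched over input, placed by distance in bp from the GENCODE start in the direction of transcription (horizontal axis), for each gene (vertical axis) and group (colour). The first 4 genes have bars in all 4 groups, the next 4 have none in 10A shCTRL, and TTK and CENPE have bars in 10A shANCO1 alone.

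The enriched regions lay on one or both sides of the start. AURKA and MAD2L1, whose promoter regions also overlapped a neighbouring gene (CSTF1 and MAD2L1-DT), had separate upstream and downstream regions in 10A shCTRL and DCIS shCTRL. In 10A shANCO1 MAD2L1 had 1 region of 2700 bp, from -1052 to 1647 bp relative to the start. In DCIS shANCO1 AURKA had 1 region of 1600 bp, from -885 to 714 bp. The other 2 cases with shANCO1 kept separate upstream and downstream regions. They were AURKA in 10A, within -1585 to 1314 bp, and MAD2L1 in DCIS, within -552 to 747 bp. PLK1 was enriched downstream of the start in each group where it was enriched, from 112 to 911 bp in 10A shANCO1, and thus outside the upstream bases printed for it. The BUB1 region crossed the start in 3 groups and in DCIS shANCO1 lay wholly upstream, from -637 to -138 bp. TTK in 10A shANCO1 had 2 short regions, from -648 to -249 bp and from 452 to 751 bp, with the start between them. Region edges lie on a grid of 100 bp, so these positions are no finer than that.

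The bases covered by enriched promoter regions of the members summed to 5100 bp in 10A shCTRL and 12500 bp in 10A shANCO1. In DCIS they summed to 7900 bp with shCTRL and 7300 bp with shANCO1. In these sums the number of members differed in 10A (4 and 10), and the mean covered length per enriched member was 1275 bp in 10A shCTRL, 1250 bp in 10A shANCO1, 987.5 bp in DCIS shCTRL and 912.5 bp in DCIS shANCO1. Per member the covered length ran from 400 bp (ESPL1 in DCIS shANCO1) to 2700 bp (MAD2L1 in 10A shANCO1).

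Enrichment is given as the log2 fold over input at the representative window of the promoter region with the lowest FDR. Of the 4 members enriched in both 10A groups, AURKA had 2.87 in shCTRL and 3.31 in shANCO1. CCNB1 had 3.19 and 3.39, and BUB1 had 4.03 and 3.66. MAD2L1 had 3.69 in shCTRL and 7.46 in shANCO1, the highest value of any member in any group, at the window representing its 2700 bp region. The value was thus higher with shANCO1 at 3 of the 4, near the 76.0% of the 6027 protein-coding genes enriched in both 10A groups. The windows behind 2 such values need not be the same bases, so the difference between them is not the fold change of the direct comparison. At BUB1 the value over input was lower in shANCO1 while the direct log2 fold change was 1.17. The wide step at MAD2L1 was not matched in the direct comparison, where its log2 fold change was 0.95 and not called (FDR 0.0594).

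In 10A shCTRL the median over the 4 enriched members was 3.44, beside 2.90 over the protein-coding genes enriched there. In the 6 members enriched in 10A shANCO1 and not in 10A shCTRL, the log2 fold over input in shANCO1 was 2.59 for AURKB, 2.76 for BUB1B, 2.92 for TTK, 3.11 for CENPE, 3.12 for PLK1 and 4.40 for ESPL1. Over all 10 members the median was 3.22 in that group, beside 3.37 over the protein-coding genes enriched there.

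In DCIS the median over the 8 enriched members was 2.96 with shCTRL and 4.25 with shANCO1, beside 3.87 and 4.53 over the genes enriched in each group. The value was higher with shANCO1 for 6 of the 8 members. The widest steps were PLK1, from 2.94 to 4.46, AURKB, from 2.96 to 4.42, and ESPL1, from 2.58 to 3.99. BUB1B went from 2.72 to 3.79, CCNB1 from 2.95 to 4.13 and BUB1 from 4.02 to 4.45. AURKA and MAD2L1 had lower values with shANCO1, 4.36 against 4.71 and 3.51 against 3.66. MAD2L1 with shANCO1 also had an upstream promoter region at 4.64, and with the highest promoter region in place of the one with the lowest FDR the count was 7 of 8, AURKA being lower, beside 70.6% of all genes. Over all genes enriched in both DCIS groups the value was higher with shANCO1 at 74.1% of 6874, near the members' share. These values rest on separate tables, and the difference between them has no test. None of the 8 was called in the direct comparison of the DCIS groups.

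**Figure D3:**
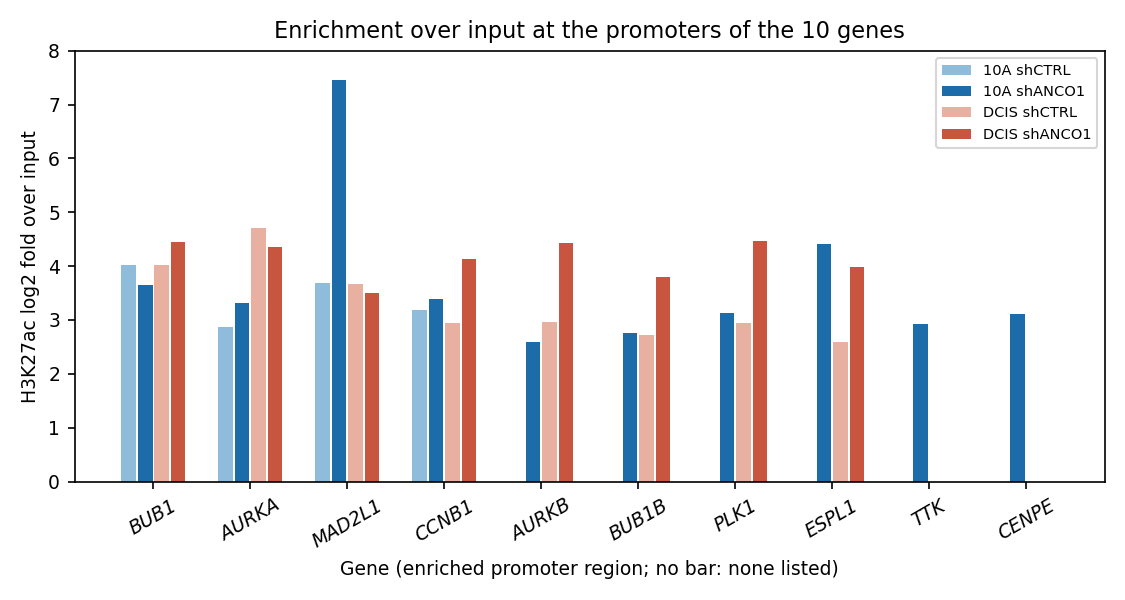
Bars are the log2 fold of H3K27ac over input (vertical axis, from 0) at the enriched promoter region of each gene (horizontal axis) in each group (colour), and a missing bar means that no enriched promoter region was listed. The bars run from 2.58 to 4.71 apart from MAD2L1 in 10A shANCO1 at 7.46.

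The genes around the members in the mitotic programme were taken as 7 lists by role, 72 genes in all. In 10A the promoter region was up at 57 of the 71 with a promoter region (80.3%) and down at 0, beside 70.2% up and 0.12% down over all genes, with a median log2 fold change of 0.80 beside 0.89 over all genes and 1.03 over the members. By role, all 10 genes of cohesin and separase control were up, as were 9 of 10 of the anaphase-promoting complex, 7 of 8 other spindle checkpoint genes, 8 of 10 spindle motors and cytokinesis genes, 9 of 12 regulators of mitotic entry, 8 of 11 kinetochore genes and 6 of 10 other mitotic kinases and cofactors. The 4 with the largest change among those called were WAPL, the cohesin release factor, at 1.83 (FDR 0.00133), CDC23, a subunit of the anaphase-promoting complex, at 1.69 (FDR 0.00141), LIN54, the DNA-binding subunit of the MuvB complex that binds the cell cycle homology element, at 1.54 (FDR 1.72e-05) and NEK2, a centrosomal kinase, at 1.38 (FDR 0.0179). No median of a role list reached that of the members. The medians come from the same libraries and are given as a description, with no test between lists.

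In DCIS 6 of the 71 wider genes were up (8.45%) and 0 down, beside 19.2% up and 3.73% down over all genes. Their median was 0.22 beside 0.45 over all genes, and 40 of 71 (56.3%) had a value above 0, beside 64.7% of all genes. The 4 with the largest change were ECT2, the cytokinesis exchange factor, at 2.78 (FDR 7.58e-11), MAD1L1, the checkpoint partner of MAD2, at 1.88 (FDR 0.00174), WEE1, the kinase that inhibits CDK1, at 1.85 (FDR 0.000442) and CDC20, the activator of the anaphase-promoting complex, at 1.46 (FDR 0.0267). The remaining 2 were CENPA and ANLN. All 6 were also up in 10A. The lowest median by role was that of the regulators of mitotic entry, at -0.72, where 3 of 12 genes had a value above 0 and 1 was up.

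**Figure D4:**
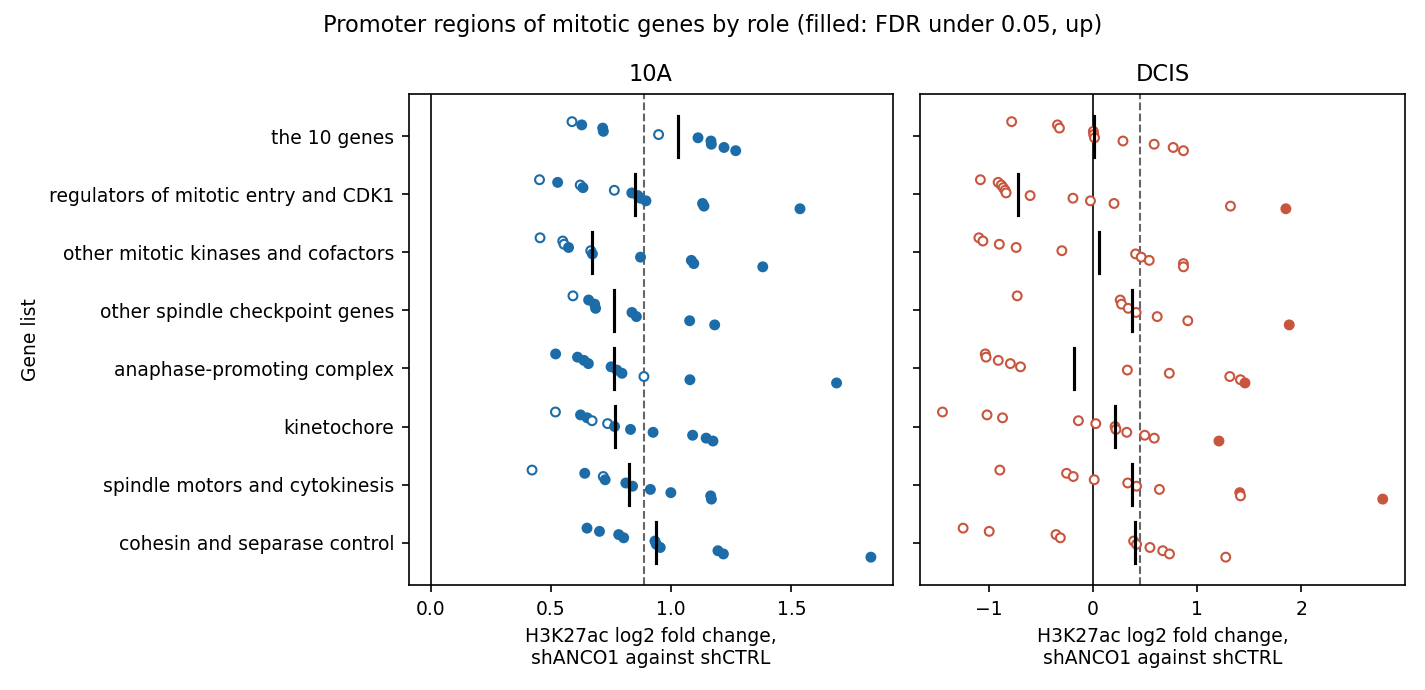
Points are the log2 fold change (horizontal axis, shANCO1 against shCTRL) at the promoter region of each gene in the members and the 7 lists by role (vertical axis), in 10A and DCIS on separate scales, filled where up at an FDR under 0.05. Black ticks are list medians and the dashed line is the median of all genes. In 10A every point is above 0 and most are filled; in DCIS the points spread on both sides of 0 and 6 are filled.

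For the wider genes over input, an enriched promoter region was listed for 59 of 72 (81.9%) in 10A shCTRL, where the members had 4 of 10, 69 (95.8%) in 10A shANCO1, 67 (93.1%) in DCIS shCTRL and 66 (91.7%) in DCIS shANCO1. Over all protein-coding genes the shares were 30.2%, 51.2%, 37.6% and 39.7% in the same order. Of the 69 enriched in 10A shANCO1, 10 (14.5%) were not enriched in 10A shCTRL. This was so for 6 of 10 members and for 41.3% of the 10261 protein-coding genes enriched in 10A shANCO1. The difference between the members and the wider genes was not tested. By role, the kinetochore genes had the lowest share in 10A shCTRL, 8 of 12, and all 10 genes of cohesin and separase control were enriched there.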

How the data were processed

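The 24 libraries were mapped to 8 groups by their labels. Reads were paired-end. The methods name BWA and Rsubread for alignment (GRCh38), samtools for duplicate removal and csaw for the differential test. Window size, filters, normalization, merging distance and the criterion for a window counted as up were not given in the sources used here, nor were read totals, so depth and counting precision are unknown. Each log2 fold change was deposited by the authors for a single window that stands for its region, as shANCO1 over shCTRL or H3K27ac over input. Each region's p-value and FDR were likewise deposited, the FDR covering the whole table, and the numbers of windows in a region were also taken from the deposited tables. These comparison columns are the only values the tables hold. Calls here were made from them, at an FDR under 0.05 with the deposited direction. This rule was set for the present counts and is not the study's own list of changed regions, whose further criteria were not used.

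From the 6 tables, regions were assigned to genes by the symbol before the first colon of each annotation entry, with Python 3.11.15 and pandas 2.3.3. A promoter region was an overlap entry marked P, and the one with the lowest FDR stood for the gene. For all genes, RefSeq protein-coding symbols were used. Exons, UTRs and starts came from GENCODE release 44 (GRCh38, the build of the tables), and sequences from RefSeq. All 10 members were named, with every region in the counts, and of the wider list up to 4 genes per direction with the largest change at FDR under 0.05. A further list of cell type markers is not reported here. The parsing and counting were tested on simulated data. The members, lists and tests were chosen with earlier results of these data known. Replicates are the libraries the labels number, and nothing in the labels says whether they came from separate cultures, so the deposited p-values may measure technical spread alone. Alternatives were other FDR thresholds, a minimum change, centring, other sets of regions and a minimum number of windows.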

Additional observations from a re-analysis of the deposited data

How the results depend on the processing

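In 10A the count of 13 member regions up became 7 at an FDR under 0.01 and 8 with a log2 fold change of at least 1, and it was 8 with promoter regions only. It was also 8 for regions within 1 kb of the GENCODE start, an alternative chosen after seeing the data. With values centred on the median of all regions and at least 1 log2 unit required, 0 regions and 0 members were up in 10A. That rule asks for a change of 1 unit beyond a median of 0.76, and no region of the members reached it. For the other FDR thresholds, the minimum change and centring, the share of all regions is not given, so these counts have no background. In DCIS an FDR under 0.1 gave 1 region and 1 member up, AURKB. The other 70 alternative values stayed within 1.5 times of the counts reported or, for the median log2 fold change, at the same second decimal. Several of these could not have moved. Counts of 0 cannot change under a stricter rule. No member had a second promoter region in 10A, so the choice of region could not alter that median. In the input tables of 10A and of DCIS shANCO1 no FDR exceeded 3.92e-08, so an FDR under 0.01 removed nothing there. At an FDR under 0.01 the promoter regions still called in 10A were those of AURKA, BUB1, PLK1 and CCNB1. The choice of the highest promoter region over input, given with the DCIS values, was also made after seeing the data. No paired analysis was possible because the tables hold no value per library, and for the same reason leaving out each replicate in turn was not run. How the libraries were normalized, which fixes where a log2 value of 0 lies, was not stated, and depth limits which genes reach enrichment over input by an amount that could not be measured here.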
